A study of Mus musculus with 10 samples.

Results

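The genes *Hal*, *Uroc1*, *Amdhd1*, *Ftcd* and *Hnmt* encode the enzymes that break down histidine and inactivate histamine. These 5 genes, of 16647 listed in the count table, were described in livers of mice given vehicle (control) or MI-883. They were chosen by their pathway, which earlier results of the same comparison had placed near the top among the genes with lower counts after MI-883. Their differences between the groups are therefore given as a description, without P-values. *Hal* and *Amdhd1* were lower in every MI-883-treated liver than in any control liver, as were 1.93% of all tested genes, and the other 3 genes overlapped between the groups. These values come from the comparison by which the genes were chosen, and nothing is read from their number.

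All 10 livers were from male humanized PXR-CAR-CYP3A4/3A7 mice, in which human genes for the xenobiotic receptors PXR and CAR and for CYP3A4 and CYP3A7 stand in for mouse genes. The animals were 10 to 15 weeks old when a high-fat diet (HFD) was started and had received HFD for 8 weeks before treatment. For a further 4 weeks on HFD, 5 mice received MI-883, a ligand of human CAR and PXR, by oral gavage at 5 mg/kg on 3 occasions per week, and 5 mice received the vehicle (DMSO, PEG300 and corn oil) on the same schedule. The livers analysed here included none without HFD and none with the mouse receptors, so the values hold for this diet and this humanized model.

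Histidine is degraded mainly in the liver. Histidase (*Hal*) removes its amino group to give urocanate, urocanase (*Uroc1*) hydrates urocanate to imidazolone propionate, imidazolonepropionase (*Amdhd1*) opens the ring to give formiminoglutamate, and formimidoyltransferase cyclodeaminase (*Ftcd*) passes the formimino group to tetrahydrofolate and releases glutamate. Histamine N-methyltransferase (*Hnmt*) is not part of this chain. It methylates histamine, the amine made from histidine by histidine decarboxylase (*Hdc*).

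In the mouse genome (GRCm38), *Hal* (Entrez gene 15109) lies on the plus strand at chr10:93488768-93516761 and *Amdhd1* (Entrez gene 71761) on the minus strand at chr10:93523338-93540111. The ends of the 2 genes face each other over 6.576 kb, with no other listed gene between them. *Ftcd* (Entrez gene 14317) lies on the plus strand of the same chromosome at chr10:76575648-76590338, 16.9 Mb away. *Uroc1* (Entrez gene 243537) is at chr6:90333239-90364551 on the plus strand and *Hnmt* (Entrez gene 140483) at chr2:24002911-24049758 on the minus strand. No other annotated gene overlapped any of the 5 genes. Of the 100-base stretches of the longest transcript of each gene, 0% occurred letter for letter in transcripts of other genes. Shorter or inexact matches, and exons outside the longest transcripts, were not examined.

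The 250 bases before the transcript start of the RefSeq promoter table (GRCm38.p6) are shown for *Hal* and *Amdhd1*, the genes that were lower without overlap, and for *Uroc1*, which acts between them and was not lower. All 5 genes were matched in this table. The *Hal* window is chr10:93488518-93488767 (plus strand), the *Uroc1* window chr6:90333039-90333288 (plus strand) and the *Amdhd1* window chr10:93540034-93540283 (minus strand). The table counts from 1 transcript per gene, starting at 93540033 in *Amdhd1* and 90333289 in *Uroc1*, while the gene spans given above cover all RefSeq transcripts. The last 78 bases of the *Amdhd1* window and the last 50 bases of the *Uroc1* window therefore lie inside these wider spans, and the *Hal* window lies outside its span. Capitals mark letters that match a searched motif on either strand.
Hal: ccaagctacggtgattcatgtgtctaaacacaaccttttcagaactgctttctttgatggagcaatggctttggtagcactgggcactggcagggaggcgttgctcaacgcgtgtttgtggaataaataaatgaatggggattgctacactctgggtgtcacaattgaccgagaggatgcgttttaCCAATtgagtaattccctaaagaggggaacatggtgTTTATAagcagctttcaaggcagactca
Uroc1: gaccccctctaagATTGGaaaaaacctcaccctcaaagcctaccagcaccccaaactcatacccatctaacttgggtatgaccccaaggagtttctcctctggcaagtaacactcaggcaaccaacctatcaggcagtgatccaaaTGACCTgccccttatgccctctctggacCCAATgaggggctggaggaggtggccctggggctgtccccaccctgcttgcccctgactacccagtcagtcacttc
Amdhd1: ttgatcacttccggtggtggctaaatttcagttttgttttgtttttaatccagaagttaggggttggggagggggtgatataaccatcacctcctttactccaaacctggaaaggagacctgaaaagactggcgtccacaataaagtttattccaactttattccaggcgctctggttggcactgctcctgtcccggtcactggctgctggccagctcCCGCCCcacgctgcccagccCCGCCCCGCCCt

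The windows of the 2 lowered genes shared none of the searched motifs. In *Hal*, the TATA box TATAAA matched on the opposite strand from 28 to 23 bases before the start and CCAAT from 64 to 60 bases before it. The TATA letters were present in 12.4% and CCAAT in 33.8% of all 32851 windows of this length. *Amdhd1* had no TATA match and 3 matches of the GC box GGGCGG within 32 bases of the start at 93540033, inside the wider gene span, of which the last 2 overlap by a base. At least 1 GC box was present in 32.7% of all windows. *Uroc1* held CCAAT 2 times and the nuclear receptor half-site AGGTCA, which 14.0% of windows hold, on the opposite strand from 104 to 99 bases before the start. Of the windows not shown, *Ftcd* held TATAAA and the HNF1 half-site GTTAAT (6.43% of windows), and *Hnmt*, whose window lies wholly inside its wider span, held CCAAT and GTTAAT. The cyclic AMP response element TGACGTCA (1.55% of windows), TGTTTAC of FOXA factors (3.17%), TTGCGCAA of C/EBP factors (0.164%), the glucocorticoid receptor half-site AGAACA (16.1%) and AGGTCA as a direct repeat with 1 or 4 bases between (0.0335% and 0.0152%) were not found in any of the 5 windows. A match is a description of letters and no evidence of binding, and the absence of a match says only that these letters are not in this window.

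Library totals lay between 23513665 and 36221514 counts, with a median of 31734138 in control and 24581671 in MI-883-treated livers. The difference of mean totals did not pass 0.05 (exact two-sided permutation test, P = 0.111), which does not show that depth was equal. Of 13219 genes tested, 101 were higher and 35 lower after MI-883 at an adjusted P under 0.05 (edgeR). The CAR target *Cyp2b10* rose in all 5 MI-883-treated livers, by 4.80 on the log2 scale (adjusted P = 3.6e-07, edgeR), and the CAR targets *Cyp2c55* and *Gadd45b* rose by 3.20 and 2.54. Of 5 hepatocyte markers, 4 were analysed here (*Alb*, *Ttr*, *Apob* and *Fgb*), and their summed level was 64700 to 74400 CPM (counts scaled by TMM to a common library size) in controls and 57200 to 67400 CPM after MI-883 (log2 fold changes from -0.38 in *Fgb* to -0.05 in *Apob*, none called). In *Ttr* alone, every treated liver (4690 to 5870 CPM) was below every control liver (6030 to 7420 CPM), as in 1.93% of all tested genes. In a principal component analysis of the 500 genes of highest variance, on component 1 (41.5% of the variance), control replicates 1 (-4.3) and 2 (0.803) lay within the range of the MI-883-treated livers (-13.7 to 0.93) and the other 3 control livers between 9.76 and 14.8. On component 2 (27.1% of the variance), control replicates 1 (12.5) and 2 (9.29) lay above all MI-883-treated livers (-10.9 to 3.49). The other 3 control livers (-0.17 to 1.7) lay within the treated range on component 2. The log2 fold changes of *Hal* and *Amdhd1* were -0.52 and -0.49 without control replicate 1 and -0.47 and -0.51 without control replicate 2.

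The first enzyme of the chain, *Hal*, was at 168, 192, 223, 206 and 217 CPM in control replicates 1 to 5. In MI-883-treated replicates 1 to 5 it was at 150, 136, 131, 163 and 149 CPM. The highest treated liver, replicate 4, lay just below the lowest control liver, replicate 1, so that the groups did not overlap but nearly touched. The mean was 201 ± 22.0 CPM in controls and 146 ± 12.8 CPM after MI-883 (SD, n = 5 each), or 72.5% of the control level. The log2 fold change was -0.46 (standard error 0.0894). The values rest on 3074 to 7102 counts per liver, for which counting error was at most 1.80%.

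The third enzyme, *Amdhd1*, varied least of the 5 genes within a group, with a coefficient of variation of 4.32% in control and 5.53% in MI-883-treated livers. Control replicates 1 to 5 were at 212, 194, 207, 192 and 207 CPM. MI-883-treated replicates 1 to 5 were at 153, 135, 139, 149 and 137 CPM. Every treated liver lay well below every control liver. The mean fell from 202 ± 8.74 to 143 ± 7.90 CPM (SD, n = 5 each), or to 70.5% of control, with a log2 fold change of -0.50 (standard error 0.0637). Over all tested genes, 1.95% had a lower log2 fold change than *Hal* and 1.56% a lower one than *Amdhd1*.

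*Uroc1* encodes the step between these 2 enzymes. Its level was 413, 449, 503, 442 and 465 CPM in control replicates 1 to 5 and 403, 444, 440, 526 and 506 CPM in MI-883-treated replicates 1 to 5. The treated group held both the lowest and the highest of the 10 livers. The means were 455 ± 33.3 and 464 ± 50.8 CPM (SD, n = 5 each), and the log2 fold change was 0.03 (standard error 0.0888).

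The last enzyme, *Ftcd*, was at 531, 518, 684, 673 and 655 CPM in control replicates 1 to 5. MI-883-treated replicates 1 to 5 were at 513, 549, 535, 633 and 564 CPM. The control livers fell into a lower pair (replicates 1 and 2) and a higher group of 3, and the treated livers lay mostly between them. All 5 treated livers were below the control median, and 1 was below the lowest control liver. Mean levels were 612 ± 80.9 CPM in controls and 558 ± 45.4 CPM after MI-883 (SD, n = 5 each). The log2 fold change was -0.13 (standard error 0.0997).

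The histamine-methylating *Hnmt* had the lowest CPM of the 5 genes, without regard to transcript length. It was also the most variable, with a coefficient of variation of 14.7% in control and 15.2% in MI-883-treated livers. Control replicates 1 to 5 were at 63.5, 59.1, 45.6, 66.3 and 52.4 CPM, and MI-883-treated replicates 1 to 5 at 58.7, 45.6, 49.3, 40.4 and 42.7 CPM. All 5 treated livers were below the control median, 2 were below the lowest control liver (replicates 4 and 5), replicate 2 was level with it, and replicates 1 and 3 lay within the control range. Mean levels were 57.4 ± 8.43 CPM in controls and 47.4 ± 7.18 CPM after MI-883 (SD, n = 5 each), or 82.5% of control. The log2 fold change was -0.28 (standard error 0.118), from 928 to 2291 counts per liver.

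**Figure D1:**
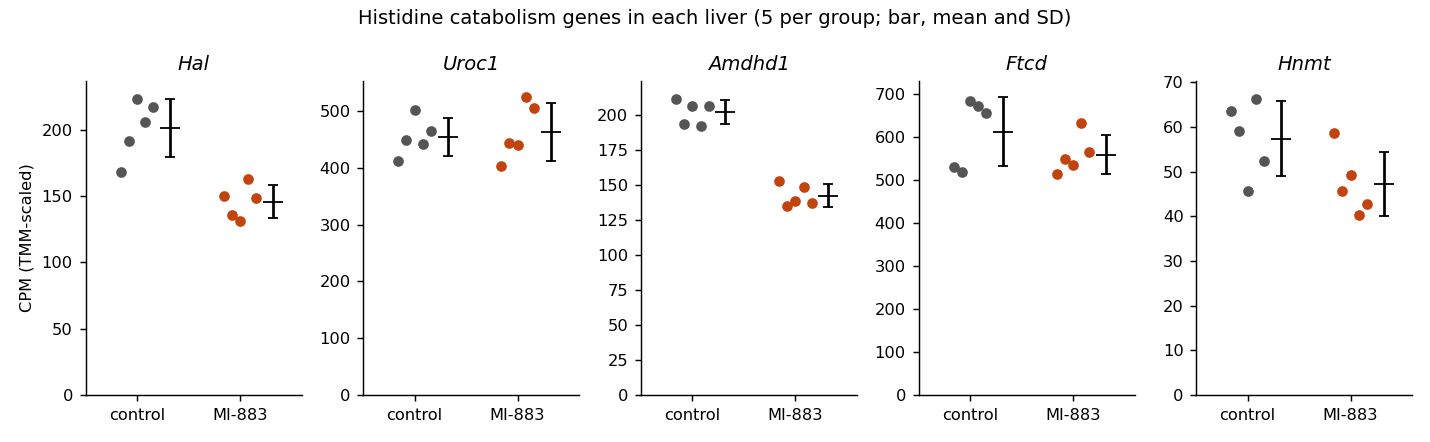
Level of each histidine catabolism gene in CPM (vertical axis, from 0) in 5 control and 5 MI-883-treated livers, each point a liver in the order of replicates 1 to 5, with the group mean and SD as a bar. *Hal* and *Amdhd1* have no treated liver above the lowest control liver (168 and 192 CPM), while *Uroc1*, *Ftcd* and *Hnmt* overlap.

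Of the 5 genes, 4 had a negative log2 fold change, and their median was -0.28, against a median of 0.0045 and 49.0% negative values over all 13219 tested genes. *Hal* and *Amdhd1* passed the threshold as lower in edgeR, as did 0.265% of all tested genes, and in DESeq2, as did 1.3%. In either direction edgeR called 1.03% of tested genes. The same 2 genes had every treated liver below every control liver, which was the case in 1.93% of all tested genes. These counts come from the comparison by which the genes were chosen, and nothing is read from them. *Amdhd1* passed in all 10 fits that left out a liver and in all 7 other fits with another test, scaling, filter or block. *Hal* passed in 6 of those 7 fits but in 3 of the 10 that left out a liver (control replicate 1, MI-883 replicate 1 or MI-883 replicate 4), with log2 fold changes from -0.52 to -0.42. *Uroc1*, *Ftcd* and *Hnmt* did not pass in any of these 17 fits. All 17 fits use the comparison by which the genes were chosen. They describe how the calls depend on processing and on single livers, and they add no support for the calls.

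Ratios of raw counts within a liver do not depend on how libraries are scaled. The *Hal* to *Uroc1* ratio was 0.406, 0.428, 0.443, 0.466 and 0.466 in control replicates 1 to 5 and 0.373, 0.307, 0.297, 0.311 and 0.294 in MI-883-treated replicates 1 to 5. Treated replicate 1 lay apart from the other 4 treated livers and below all control livers. The *Amdhd1* to *Uroc1* ratio was 0.514, 0.433, 0.410, 0.435 and 0.444 in control and 0.380, 0.305, 0.315, 0.284 and 0.271 in MI-883-treated livers, again without overlap. The *Hal* to *Amdhd1* ratio was 0.996 ± 0.120 in control and 1.02 ± 0.0652 in MI-883-treated livers (SD, n = 5 each), and the means of this ratio differed by less than either SD. *Ftcd* to *Uroc1* overlapped, at 1.15 to 1.52 in control and 1.11 to 1.27 in MI-883-treated livers. The ratios to *Uroc1* restate the group differences of *Hal* and *Amdhd1* by which the genes were chosen, and are no separate support. How often ratios of other genes lie apart was not examined.

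**Figure D2:**
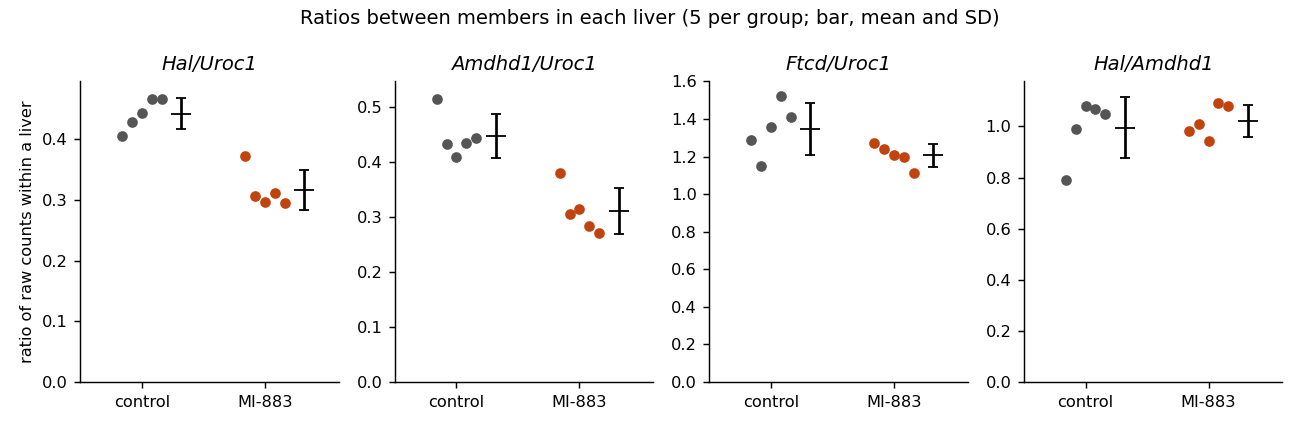
Ratio of raw counts of 2 genes within a liver (vertical axis, from 0) in 5 control and 5 MI-883-treated livers, each point a liver in the order of replicates 1 to 5, with the group mean and SD as a bar. *Hal*/*Uroc1* and *Amdhd1*/*Uroc1* are lower in all treated livers, while *Ftcd*/*Uroc1* and *Hal*/*Amdhd1* overlap.

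Levels of different genes were compared per kilobase of exon. In control livers *Ftcd* was the most abundant transcript, at 192 ± 25.3 CPM per kb, followed by *Uroc1* at 131 ± 9.58, *Amdhd1* at 83.6 ± 3.61, *Hal* at 36.2 ± 3.96 and *Hnmt* at 32.4 ± 4.77 CPM per kb (SD, n = 5 each). The ranges of neighbours in this order did not overlap, except for *Hal* (30.2 to 40.2 CPM per kb) and *Hnmt* (25.8 to 37.5 CPM per kb). The first enzyme of the chain was thus its least abundant transcript. In MI-883-treated livers *Amdhd1* was at 58.9 ± 3.26 CPM per kb, *Hal* at 26.3 ± 2.30 and *Hnmt* at 26.8 ± 4.06 CPM per kb, and the last 2 again overlapped. The order was the same with the length of the longest transcript.

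The lower level of *Hal* and *Amdhd1* was set beside their surroundings on chromosome 10. *Lta4h* (leukotriene A4 hydrolase), 3.871 kb before *Hal*, had a log2 fold change of -0.08 (adjusted P = 0.558, edgeR). *Ccdc38*, 0.477 kb from the near end of the *Amdhd1* gene span, was at a mean of 0.432 CPM with a log2 fold change of -0.03 (adjusted P = 0.974, edgeR), a level at which a change of the size seen in *Amdhd1* lay within its 95% interval of -0.62 to 0.57. Together with *Snrpf* and *Ntn4*, the 4 other tested genes within 150 kb had log2 fold changes from -0.08 to 0.66 and none was called (smallest adjusted P = 0.145, edgeR). *Snrpf* (mean 1.09 CPM, standard error 0.25) and *Ntn4* (2.97 CPM, 0.198) were also at low levels, while *Lta4h* was at 35.8 CPM (0.0628). Beside the other members, *Chst13* (-0.06) and *Zxdc* (0.02) flank *Uroc1*, *Spatc1l* (-0.17) and *Col6a2* (0.44) flank *Ftcd*, and *Spopl* (0.03) lies on one side of *Hnmt*, each with its log2 fold change in parentheses and an adjusted P of at least 0.427 (edgeR). *Il1f9*, on the other side of *Hnmt*, was below the count minimum of 60 counts summed over the 10 livers.

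**Figure D3:**
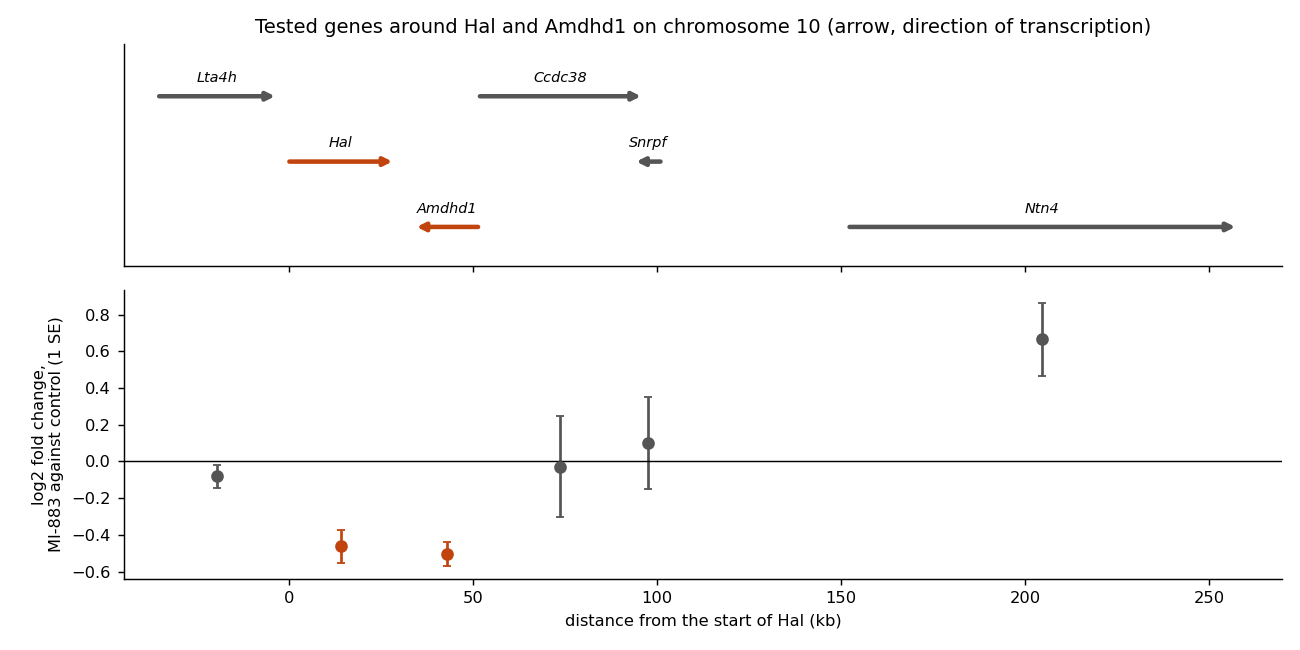
Tested genes around *Hal* and *Amdhd1* by distance from the start of *Hal* in kb (horizontal axis), with arrows in the direction of transcription above and the log2 fold change of MI-883 against control with 1 standard error below. The arrows of *Hal* and *Amdhd1* face each other, and these 2 genes lie at -0.46 and -0.50, while the 4 other genes lie between -0.08 and 0.66.

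Variation between livers of the same group was not used to choose the genes and was tested for each of the 10 pairs of genes, after the group means were taken out of log2 CPM (exact two-sided permutation within groups, 14400 arrangements, Benjamini-Hochberg over 10 pairs). *Uroc1* and *Hnmt* varied in opposite directions (Pearson r = -0.90, P = 0.000625, adjusted P = 0.00625, exact permutation; Spearman rho = -0.89, P = 0.00181, adjusted P = 0.0181). The correlation was -0.90 within control and -0.94 within MI-883-treated livers and -0.84 without the 2 livers farthest from the median of *Uroc1*. It depended on the scaling, since with total counts in place of TMM it was -0.62 and no pair passed. *Hnmt* also followed the library total within groups (r = 0.76) and *Uroc1* ran against it (r = -0.50), and the part of depth in this relation was not tested. The other 9 pairs did not pass, among them *Hal* with *Ftcd* (r = 0.77, rho = 0.76, P = 0.018, adjusted P = 0.06, exact permutation) and *Uroc1* with *Ftcd* (r = 0.69, rho = 0.73, P = 0.0123, adjusted P = 0.06, exact permutation). *Hal* and *Amdhd1*, which were lower together, showed no correlation past the threshold from liver to liver within a group (r = 0.22, rho = 0.28, P = 0.549, adjusted P = 0.784, exact permutation). Their r was -0.22 in control and 0.69 in MI-883-treated livers, and 0.73 without control replicate 1, where *Hal* was lowest and *Amdhd1* highest of the control livers.

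Pearson correlation with the mean log2 CPM of *Hal*, *Uroc1*, *Amdhd1* and *Ftcd* was taken over 10 livers with group means taken out. Among 9323 genes of at least 5 CPM, the genes most like this mean were sought. They were *Igfals* (r = 0.95), which encodes the acid-labile subunit of the circulating IGF complex, the organic anion transporter gene *Slc22a7* (0.95), *H2-Q6* (0.95), *Fastk* (0.94), *Adck1* (0.94), *Tpst1* (0.93), *Habp2* (0.93), *Atg4d* (0.93), *Zfp180* (0.93) and *Fance* (0.93). *H2-Q6* belongs to a family of near-identical genes, and its counts are uncertain. None of the 10 genes was called between the groups (adjusted P from 0.347 to 0.995, edgeR), and with total-count scaling their r was 0.52 to 0.92. The mean of the 4 enzymes itself had an r of -0.66 with the TMM factor. Within groups *Amdhd1* had an r of 0.22 with *Hal*, -0.1 with *Uroc1* and 0.01 with *Ftcd*. A gene that follows the mean is therefore not shown to follow *Amdhd1*. *Hnmt* ran against the mean, at rank 8868 of 9323 with r = -0.71, and with total-count scaling its r was -0.44.

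Other genes that make, carry or use histidine and histamine were not called in either direction. Of 17 such genes 12 were tested, 7 with a negative and 5 with a positive log2 fold change, and their median was -0.02. *Hdc*, which makes histamine, was at 19.1 ± 4.24 CPM in controls and 21.7 ± 6.87 CPM after MI-883 (log2 fold change 0.19, adjusted P = 0.691, edgeR). *Maob*, which oxidizes methylated histamine, was at 245 ± 25.0 and 206 ± 18.2 CPM (-0.25, adjusted P = 0.188, edgeR), and *Maoa* had a log2 fold change of 0.03. *Slc38a3*, a hepatic carrier of glutamine and histidine, was at 1620 ± 315 and 1350 ± 188 CPM (-0.27, adjusted P = 0.369, edgeR). The mitochondrial histidyl-tRNA synthetase gene *Hars2* had all treated livers (22.3 to 26.6 CPM) below all control livers (27.7 to 30.6 CPM) but did not pass (-0.23, adjusted P = 0.142, edgeR), and the cytosolic *Hars* had a log2 fold change of -0.05. The histidine and peptide carriers *Slc15a4* (-0.01) and *Slc15a3* (0.36), the organic cation and histamine carrier *Slc22a3* (0.43) and the carnosine genes *Carns1* (0.33), *Cndp1* (-0.11) and *Cndp2* (-0.04) did not pass either. *Aoc1*, *Slc38a5*, *Slc29a4*, *Hrh1* and *Hrh2* were below the count minimum, with at most 6 counts in a liver.

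**Figure D4:**
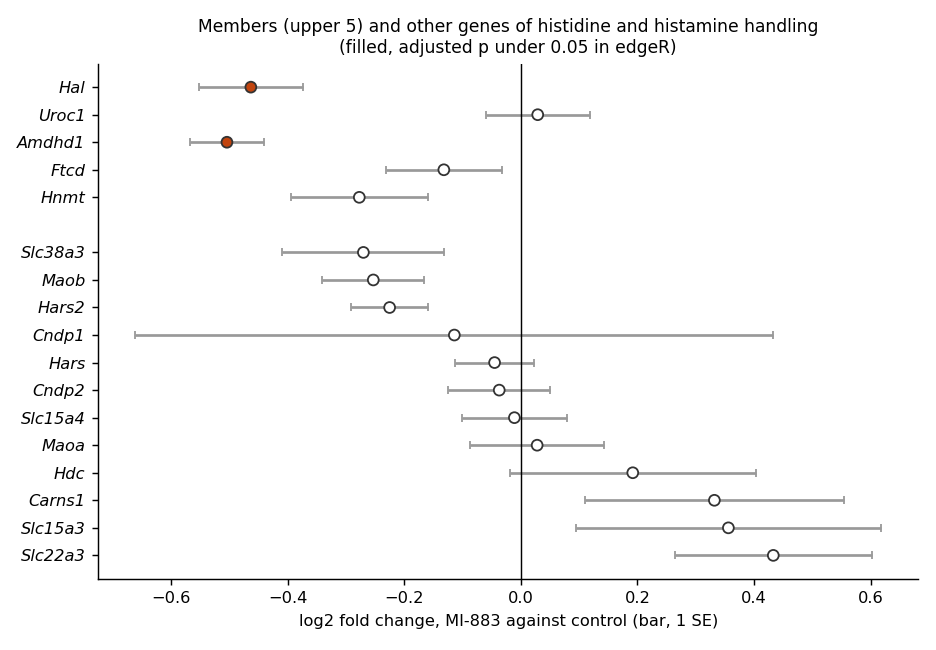
Log2 fold change of MI-883 against control (horizontal axis) with 1 standard error for the 5 genes in the order of the text (upper group) and for the 12 tested genes of histidine and histamine handling (lower group). Filled points passed an adjusted P under 0.05 in edgeR. The 5 genes were chosen by this comparison, and nothing is read from which of them passed. *Hal* and *Amdhd1* lie below all other genes shown, which range from -0.28 to 0.43.

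The pathways that receive the products of the chain were not called in edgeR. Among 25 genes of folate one-carbon metabolism, into which *Ftcd* feeds, 12 were negative and 13 positive with a median log2 fold change of 0.06, from *Gnmt* (-0.34, adjusted P = 0.4, edgeR) to *Mthfd1l* (0.84, adjusted P = 0.261, edgeR). Among 10 genes of glutamate handling, 6 were negative and the median was -0.06, from *Got1* (-0.77, adjusted P = 0.148, edgeR) to *Glul* (0.28, adjusted P = 0.155 in edgeR, 0.0128 in DESeq2).

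Enzymes that break down other amino acids were mostly lower by less than *Hal* and *Amdhd1*. Of 38 tested genes 32 had a negative log2 fold change, with a median of -0.16 (-0.10 without MI-883 replicate 3), against 49.0% negative over all tested genes. In edgeR 1 was called higher and none lower. The riser was *Acmsd*, of tryptophan breakdown, from 9.74 ± 1.22 to 14.0 ± 1.79 CPM (by 0.52 on the log2 scale, adjusted P = 0.0435, edgeR), and the lowest was *Cdo1*, the cysteine dioxygenase gene (-0.54, adjusted P = 0.091 in edgeR, 0.00914 in DESeq2). Without single livers *Acmsd* passed in 1 of 10 fits, that without MI-883 replicate 3 (adjusted P from 0.0319 to 0.115, edgeR). DESeq2 called 4 lower and 1 higher. All 8 urea cycle genes were negative and none was called, with a median of -0.23 (-0.15 without control replicate 5), from *Ass1* (-0.31, adjusted P = 0.197, edgeR) to *Slc25a13* (-0.0031, adjusted P = 0.991, edgeR). *Tdh* was below the count minimum.

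Position along the liver lobule was described by markers of periportal hepatocytes, where amino acid breakdown is known to be concentrated, and of pericentral hepatocytes. Over all tested genes, 49.0% had a negative log2 fold change. Of 14 periportal genes, 12 were negative with a median log2 fold change of -0.25 (-0.16 without control replicate 5) and none was called in edgeR, from *Sds* (-0.41, adjusted P = 0.222) to *Cdh1* (0.93, adjusted P = 0.246). Of 15 pericentral genes, 10 were positive with a median of 0.27. *Lect2* rose (0.55, adjusted P = 0.042, edgeR) and *Rnase4* fell (-0.79, adjusted P = 0.028, edgeR), while *Aldh1a1* was highest at 0.56 (adjusted P = 0.051, edgeR). DESeq2 called 3 of the 15 higher, among them *Aldh1a1* (adjusted P = 0.00033, DESeq2), and 2 lower. Without single livers *Lect2* passed in 2 of 10 fits (without control replicate 4 or MI-883 replicate 3) and *Rnase4* in 3 of 10 (without control replicate 1, control replicate 2 or MI-883 replicate 1). These values moved beside those of *Hal* and *Amdhd1*, and their part in them was not tested. In whole liver, fewer cells of a type and less RNA per cell cannot be told apart. Of 17 regulators of liver amino acid breakdown, such as the glucagon receptor and C/EBP and FOXA factors, 15 were negative with a median of -0.12 and none was called in edgeR, from *Foxa2* (-0.38, adjusted P = 0.303) to *Foxa1* (0.07, adjusted P = 0.853). DESeq2 called *Cebpa* lower (-0.30, adjusted P = 0.0151, against 0.133 in edgeR).

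**Figure D5:**
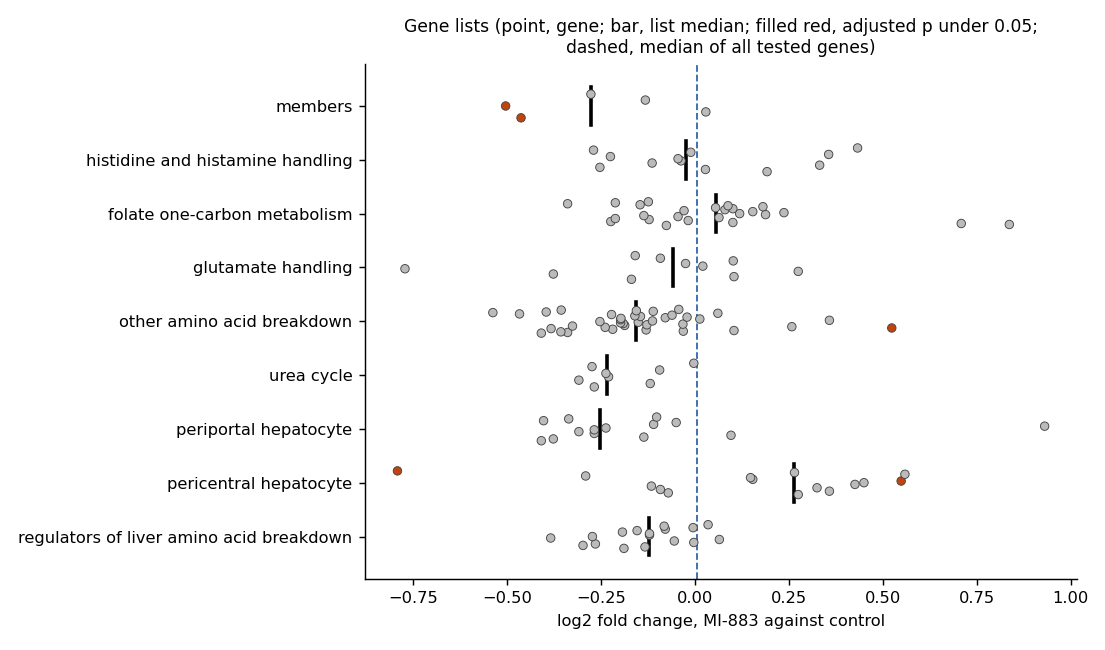
Log2 fold change of MI-883 against control (horizontal axis) for each tested gene of 9 lists, with the list median as a bar and the median of all tested genes (0.0045) as a dashed line. Points in red passed an adjusted P under 0.05 in edgeR: *Hal* and *Amdhd1*, *Acmsd* among other amino acid enzymes, and *Rnase4* and *Lect2* among pericentral genes. *Hal* and *Amdhd1* were chosen by this comparison, and nothing is read from their passing. Of all tested genes, 0.265% were called lower in edgeR.

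Markers of other liver cells were not called in any list. Summed levels were 25.0 to 117 CPM in controls and 35.1 to 190 CPM after MI-883 for 5 cholangiocyte markers (all positive, median log2 fold change 0.55, from 0.19 in *Epcam* to 0.83 in *Spp1*) and 182 to 272 and 141 to 320 CPM for 6 Kupffer cell markers (4 of 6 positive, 0.02, from -0.88 in *Marco* to 0.10 in *Vsig4*). They were 105 to 148 and 119 to 156 CPM for 5 sinusoidal endothelial markers (4 of 5 positive, 0.07, from -0.13 in *Clec4g* to 0.32 in *Lyve1*), and 203 to 312 and 223 to 366 CPM for 5 stellate cell markers (4 of 5 positive, 0.16, from -0.34 in *Des* to 0.89 in *Col1a1*). For 5 leukocyte markers, 4 of them tested, they were 8.25 to 16.1 and 10.2 to 17.1 CPM (2 of 4 positive, -0.17, from -0.51 in *Cd3e* to 0.04 in *Ptprc*). Of 8 mast cell markers, 7 were analysed here with a summed level of 2.21 to 4.40 and 4.12 to 4.86 CPM, and *Kit* alone passed the count minimum (log2 fold change 0.35). All of these levels were far below those of the hepatocyte markers, and their part in the levels of the 5 genes was not tested.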

How the data were processed

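Liver RNA of 10 mice, 5 control and 5 MI-883-treated, was sequenced as paired-end, strand-marking libraries, 1 per animal. According to the study's methods, the authors aligned reads to mm10 with STAR and counted them with featureCounts. The submitters' processing notes also name fastp 0.23.0. The STAR version, the annotation and the strand setting are not given in the sources used here. What the authors deposited are unnormalized counts of reads, 1 line per Entrez gene. Of 16647 genes, 16644 were matched to RefSeq symbols (GRCm38.p6), and 3 were not. Exon lengths are from GENCODE on GRCm38.

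Livers were grouped by the treatment in their labels. No replicate libraries of the same group were alike within sampling noise (20 pairs). A gene was tested if its counts over all livers came to at least 60 (13219 genes, 3428 below the minimum). Counts were scaled by TMM and compared with the quasi-likelihood test of edgeR 4.0.16 in R 4.3.3, with group as the sole term, Benjamini-Hochberg adjustment over all tested genes and a threshold of 0.05. The study's methods use DESeq2, which was run as an alternative (1.42.0, Wald test). Standard errors were obtained from the F statistic of each fit, and the 95% interval of *Ccdc38* from its standard error with the moderated degrees of freedom. A count of 3 corresponds to 0.0838 to 0.133 CPM, and this floor and all counting errors cover counting error only. For correlations and similar genes, 1 count was added before taking log2.

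The 5 genes and all lists were chosen with earlier results of these data known. Named genes are the 5 genes, list genes with an adjusted P under 0.05, the tested genes of histidine and histamine handling, the highest and lowest of each other list, the 10 most similar genes, and the nearest gene on each side. *Snrpf*, *Ntn4* and *Cebpa* were named after their values were seen. Alternatives were DESeq2, its size factors or total counts in edgeR, 60 counts in every liver, every listed gene, filterByExpr, a block for the replicate number, and leaving out each liver. For correlations they were total counts, 5 added counts and leaving out each liver.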

Additional observations from a re-analysis of the deposited data

Results flagged for a closer look

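The *Hal* to *Uroc1* ratio of raw counts was 0.373 in MI-883-treated replicate 1, farther from the other 4 treated livers than Dixon's 95% limit allows, the nearest being at 0.311. The level of *Fance*, one of the 10 genes most like the mean of the 4 enzymes, was 12.7 CPM in MI-883-treated replicate 4. The nearest treated liver was at 9.84 CPM. These were 2 of 44 groups of 5 livers examined, and chance alone gives about 2.2 such groups.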

How the results depend on the processing

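The signs of *Hal*, *Amdhd1*, *Ftcd* and *Hnmt* held under every alternative, while *Uroc1* lay between -0.02 and 0.08 without single livers and was positive in 7 of those 10 fits. DESeq2 called 463 genes (291 higher, 172 lower), and without single livers edgeR called 62 to 208 genes, 52 to 148 higher and 9 to 60 lower, the highest counts without control replicate 1 and the lowest totals without MI-883 replicate 5. The number of the 5 genes called lower was 1 to 2 without single livers. Calls under DESeq2 were 1 in glutamate handling, 5 in other amino acid breakdown, 5 among pericentral genes and 1 among regulators. Without single livers they were 0 to 1 in glutamate handling, 0 to 3 in other amino acid breakdown, 0 to 1 among periportal genes and 0 to 2 among pericentral genes. Without single livers the median log2 fold change was -0.32 to -0.15 in the urea cycle, -0.22 to -0.10 in other amino acid breakdown and -0.35 to -0.16 in the periportal list, and with 60 counts in every liver it was 0.001 in the folate list. The number of correlated pairs was 0 with total counts and 1 to 3 without single livers. The cause of these changes was not tested. Counting error was at most 3.28% for the 5 genes, while depth limited *Ccdc38*, *Cndp1* and the mast cell markers.

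Replicate numbers were shared by the groups without pairing the livers: same-numbered livers had correlations of their deviations from -0.11 to 0.40 over 11613 genes, 1 of 5 pairs was over 0.1, and 0 of 5 control livers correlated best with its own number. With the replicate number as a block, 89 genes were called, 17 of them lower, 1 of the 5 genes was called lower (*Amdhd1*, while *Hal* was at -0.46 and did not pass), and other amino acid breakdown had 0 calls and pericentral genes 1, which was *Aldh1a1* (adjusted P = 0.0496, edgeR), while *Lect2* (0.053), *Rnase4* (0.0659) and *Acmsd* (0.0809) did not pass.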
